A study of Glycine max with 12 samples.

Results

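Soybean (Glycine max) roots carrying Rhizophagus irregularis were compared with roots carrying Glomus aggregatum, using the 9 colonized libraries out of the 12 in the series. The Ri group held 3 libraries from roots inoculated with R. irregularis. The Ga-H and Ga-L groups held 3 libraries each, from roots inoculated with G. aggregatum and labelled as having a high or a low level of mycorrhizal colonization. The comparison set the Ri mean against the mean of Ga-H and Ga-L, which weighs both levels of G. aggregatum equally. The 3 uncolonized libraries (NM) had no part in it, and their values are given only as a description. Every library was made from total RNA of root tissue. The labels name no soybean genotype, plant age or growth conditions, and they give no colonization level for Ri, so fungal species, inoculum and extent of colonization cannot be told apart. Nor do they state whether the replicates were different plants or pots, and the p-values cover the variation among these libraries only, which may be technical.

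Arbuscular mycorrhizal fungi grow into the root cortex and form branched structures, arbuscules, inside cortical cells, where the fungus hands over phosphate and nitrogen and receives sugars and lipids. R. irregularis and G. aggregatum both belong to this group, and fungal species are known to differ in how fast they colonize a root and how much the plant gains from them. The title of the study names sugar metabolism and sugar export as its interest. Only soybean gene IDs are listed in the tables, so the values describe the plant side of the symbiosis. Neither the files nor the reference table pairs these IDs with gene names, so genes are given by ID, without functions, and the root and arbuscule identity of the samples could not be checked against marker genes. In bulk root RNA, fewer cells of a type and less RNA per cell cannot be told apart.

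Total expected counts ran from 10182200 in Ga-H replicate 1 to 10732861 in Ri replicate 3. The number of genes listed with a value was 43463 ± 410 in Ri (SD, n = 3) and 43416.5 ± 301 in the 6 Ga libraries (2-sided exact permutation p = 0.857). The 100 most abundant genes took 11.2 ± 0.595% of all counts in Ri (SD, n = 3) and 12.2 ± 1.90% in Ga (SD, n = 6, 2-sided exact permutation p = 0.476). Neither difference passed, and the smallest p that 3 against 6 libraries can give is 0.0238.

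The Ri libraries were not alike. Over the 35781 genes tested, the root-mean-square difference in log2 CPM (counts scaled to library size) was 0.55 between Ri replicates 2 and 3. It was 0.97 between Ri replicates 1 and 2, and 0.77 between Ri replicates 1 and 3. Ri replicate 1 was nearer to each of the Ga-H libraries, at 0.61 to 0.66, than to either of the other Ri libraries. It was not the only library to stand apart. Ri replicate 2 was the farthest from every Ga library, at 0.76 to 0.91. Ri replicate 3, though nearest to Ri replicate 2, was nearer to each Ga-H library, at 0.60 to 0.69, than to Ri replicate 1. Within the Ga groups the pairs differed by 0.48 to 0.51 in Ga-H and by 0.43 to 0.62 in Ga-L. The comparison is therefore given with and without Ri replicate 1.

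With all 9 libraries, 86 genes (0.24% of the 35781 tested) differed between the fungi. Of these, 22 were higher in Ri (0.0615% of those tested) and 64 were lower (0.179%), at a threshold of 0.05 on the Benjamini-Hochberg adjusted p from the quasi-likelihood test of edgeR. The number of calls depended on the method, with 5 higher and 9 lower genes when Ga-H and Ga-L were taken as 1 group, 92 and 175 with NM libraries in the fit and 478 and 767 with DESeq2. Without adjustment 4940 genes (13.8%) had p under 0.05 in edgeR. In all 86 genes the 3 Ri libraries and the 6 Ga libraries did not overlap in FPKM (fragments per transcript length, scaled to library size). Such a separation was found in 792 genes with higher values in Ri (2.21% of those tested) and in 779 with lower values (2.18%), 4.39% in either direction. Most of these genes missed the adjusted threshold. With libraries assigned to 3 and 6 at random, a gene without ties separates in either direction with a probability of 0.0238. A large part of these separations is thus of a kind that chance produces.

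**Figure D1:**
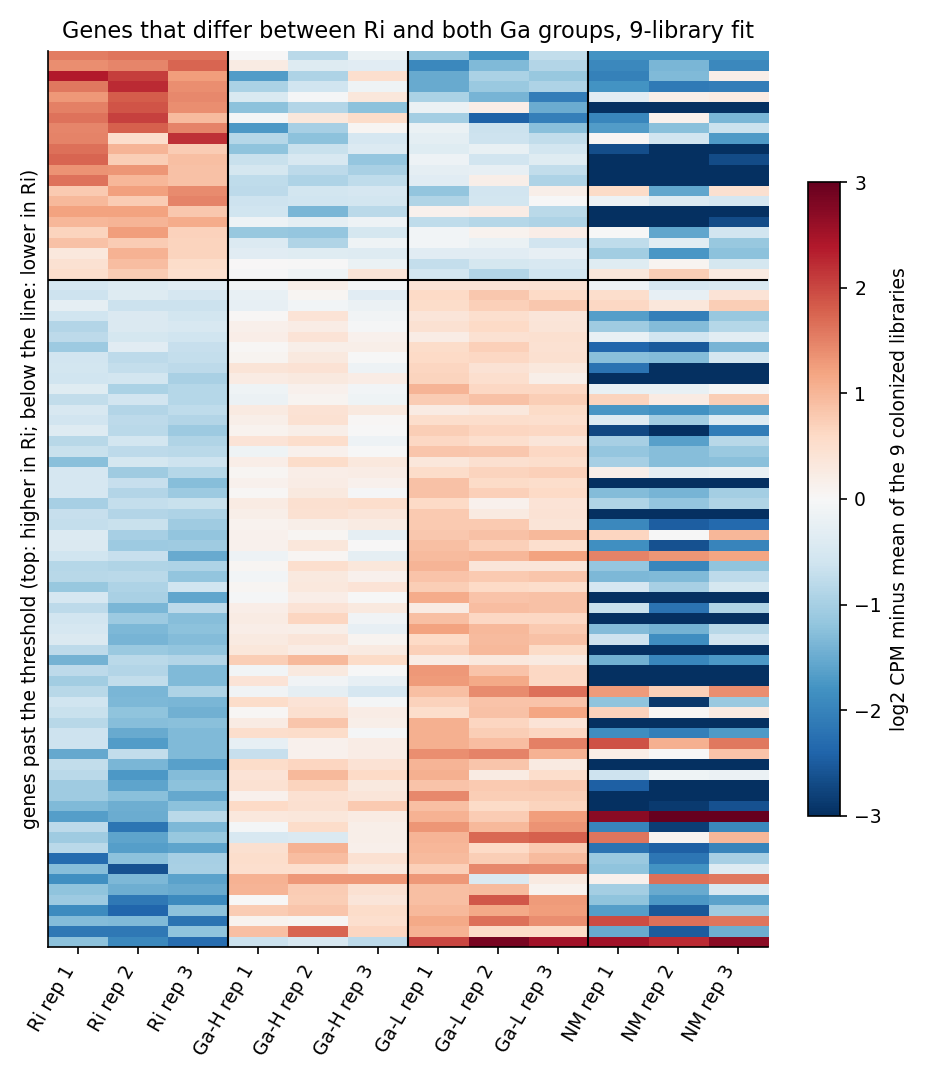
Level of the 86 genes past the threshold (rows, ordered by log2 fold change, the 22 higher in Ri above the line and the 64 lower in Ri below it) in the Ri, Ga-H, Ga-L and NM libraries (columns), as log2 CPM minus the mean of the 9 colonized libraries, with colours ending at 3 and -3. Every row separates the Ri columns from the 6 Ga columns, the lower rows are mostly deepest red in Ga-L, and many rows are lowest in NM.

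The changes were moderate. Among the 22 genes higher in Ri the median log2 fold change was 1.81 (quartiles 1.58 and 2.40), and among the 64 lower ones it was -1.48 (quartiles -1.92 and -1.16). A difference of at least 2-fold was reached by 20 of the 22 and 58 of the 64, and one of at least 8-fold by 2 in each direction. Over all genes tested the median log2 fold change was 0.02, and 4.58% differed by at least 2-fold. The 8 genes with the widest fitted differences, 32-fold or more, all missed the threshold.

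The 86 genes spanned a wide range of levels. Those higher in Ri had a median of 16.0 FPKM in Ri and 4.21 in Ga, and the highest reached a mean of 65.9 FPKM in Ri. Those lower in Ri had a median of 5.07 FPKM in Ri and 16.0 in Ga, and 4 of them were above 100 FPKM in Ga. The most abundant of these, Glyma.10G186500.Wm82.a2.v1, had 272.15, 241.1 and 230.0 FPKM in the Ri libraries, against 475.38, 567.65 and 425.15 in Ga-H and 577.65, 567.83 and 557.3 in Ga-L. The median transcript length was 1439 bases for genes higher in Ri, 1735.5 for genes lower in Ri and 1752 for all genes tested.

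By the rule for named genes (at least 1 FPKM in the higher group, no overlap between the fungi, largest fold change), Glyma.13G362200.Wm82.a2.v1 and Glyma.14G053600.Wm82.a2.v1 showed the largest rises in Ri. Glyma.13G362200.Wm82.a2.v1 had 1.01, 1.09 and 1.39 FPKM in the Ri libraries, against 0.41, 0.22 and 0.23 in Ga-H and 0, 0.06 and 0.12 in Ga-L. The Ri values lay close together and above all others, and this weakly expressed gene rested on 18 to 25 counts per Ri library. The fitted difference was 3.06 on the log2 scale, with a standard error of 0.43 (edgeR, adjusted p = 0.0372). The gene passed the low-count filter only through the Ri libraries, where it is high, so this p-value adds no separate support. Glyma.14G053600.Wm82.a2.v1 had 28.29, 23.02 and 13.3 FPKM in Ri, against 1.58, 2.76 and 7.67 in Ga-H and 1.73, 2.6 and 2.28 in Ga-L. All Ri libraries were higher than all Ga libraries, and Ga-H replicate 3 was the nearest. For this gene edgeR gave a log2 difference of 2.83 with a standard error of 0.42 (adjusted p = 0.0408).

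By the same rule the largest falls were those of Glyma.05G193900.Wm82.a2.v1 and Glyma.10G009400.Wm82.a2.v1. Glyma.05G193900.Wm82.a2.v1 had 0.22, 0.09 and 0.08 FPKM in Ri, against 0.34, 0.42 and 0.32 in Ga-H and 2.46, 4.45 and 3.5 in Ga-L. The fall in Ri was thus mainly a distance from Ga-L, with Ga-H just above Ri. In NM it had 3.69, 2.97 and 4.09 FPKM, the level of Ga-L. The fitted log2 difference was -3.14 with a standard error of 0.39 (edgeR, adjusted p = 0.0293), the mean of -1.47 (standard error 0.45) against Ga-H and -4.81 (standard error 0.39) against Ga-L. It rested on 2 to 6 counts per Ri library. Glyma.10G009400.Wm82.a2.v1 had 0.22, 0.23 and 0.54 FPKM in Ri, against 2.77, 5.06 and 2.24 in Ga-H and 2.95, 2.07 and 2.05 in Ga-L. Here the log2 difference of Ri was -3.36 from Ga-H and -2.91 from Ga-L, and the NM libraries, at 0.36, 0.13 and 0.4 FPKM, overlapped the Ri range. The combined log2 difference was -3.14 with a standard error of 0.44 (edgeR, adjusted p = 0.0372). Both falling genes passed the low-count filter only through Ga libraries, where they are high, so their p-values add no separate support.

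Each of these 4 calls was lost in most of the fits with a library left out, while the direction was kept. The calls of Glyma.13G362200.Wm82.a2.v1 and Glyma.10G009400.Wm82.a2.v1 were lost with any library but Ri replicate 1 left out, with edgeR adjusted p up to 0.17 and 0.111. That of Glyma.14G053600.Wm82.a2.v1 held only without Ri replicate 1 or Ga-H replicate 3 (up to 0.134), and that of Glyma.05G193900.Wm82.a2.v1 only without Ri replicate 1 or Ga-L replicate 1 (up to 0.11). With Ga-H and Ga-L taken as 1 group of 6, none of the 4 was called (edgeR adjusted p from 0.0564 to 0.319), the spread of that group then including the difference between the levels of colonization. The call of Glyma.14G053600.Wm82.a2.v1 was also lost without the low-count filter (edgeR adjusted p = 0.0503), and that of Glyma.13G362200.Wm82.a2.v1 with limma on log2(FPKM + 0.1) (adjusted p = 0.117).

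**Figure D2:**
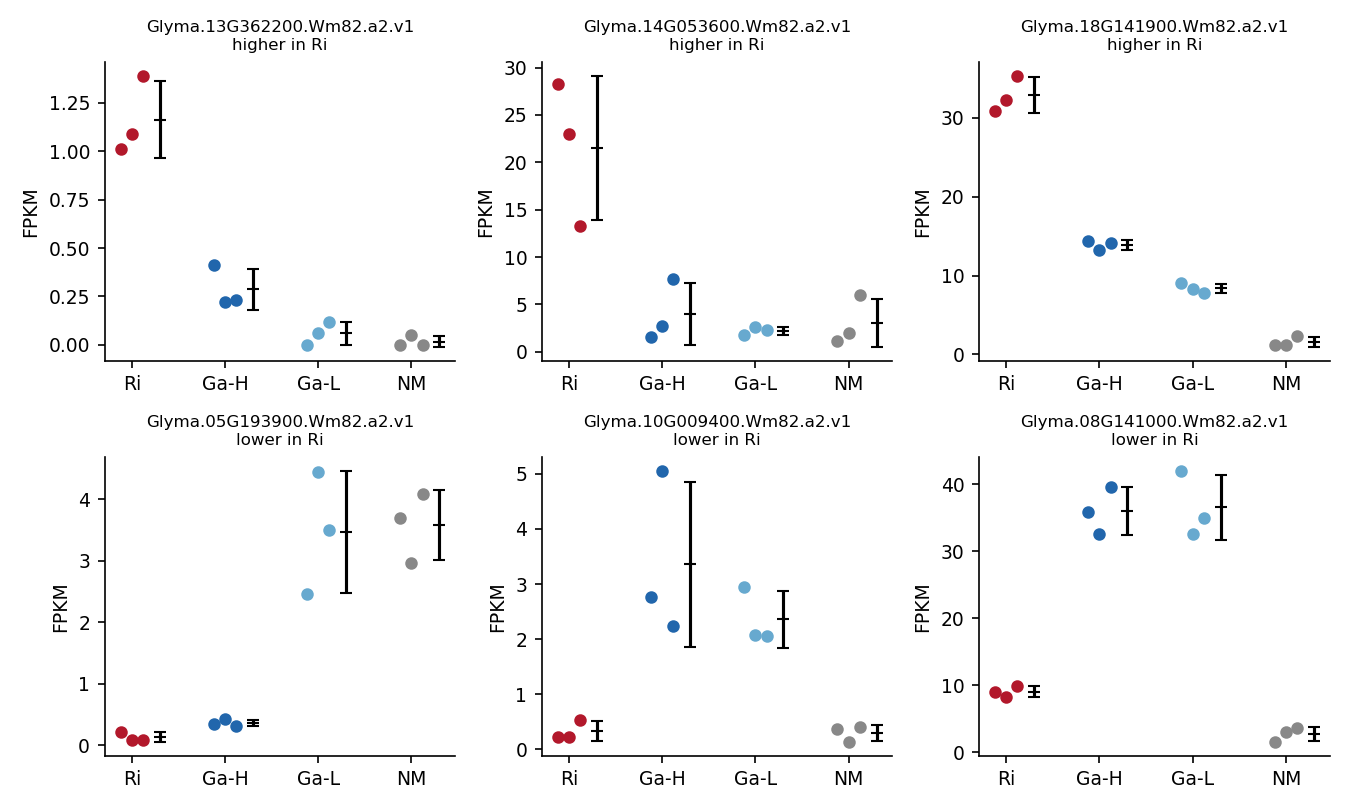
FPKM in each library (points) of 3 genes higher in Ri (top row) and 3 lower in Ri (bottom row), by group, with the mean ± SD of the 3 libraries beside the points. The right-hand gene of each row is the one with the smallest adjusted p in its direction, and Ri values lie outside the range of both Ga groups in all 6 panels.

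Of the 86 genes, 7 stayed past the threshold with every one of the 9 libraries left out in turn, and 47 only without Ri replicate 1. These 7 were picked out after their values were seen. The 3 higher in Ri were Glyma.18G141900.Wm82.a2.v1, Glyma.03G253700.Wm82.a2.v1 and Glyma.12G129500.Wm82.a2.v1. The 4 lower in Ri were Glyma.08G141000.Wm82.a2.v1, Glyma.20G113000.Wm82.a2.v1, Glyma.09G053700.Wm82.a2.v1 and Glyma.12G130200.Wm82.a2.v1. Their highest edgeR adjusted p with a library left out ran from 0.00466 for Glyma.18G141900.Wm82.a2.v1 to 0.0492 for Glyma.12G130200.Wm82.a2.v1. Only Glyma.12G130200.Wm82.a2.v1 lost its call in any of the other 12 settings, with Ga-H and Ga-L as 1 group (edgeR adjusted p = 0.0979).

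Glyma.18G141900.Wm82.a2.v1 had the smallest adjusted p of all genes. It was at 30.91, 32.31 and 35.35 FPKM in Ri, against 14.38, 13.22 and 14.08 in Ga-H and 9.01, 8.3 and 7.8 in Ga-L. The 3 groups formed 3 separate tiers, and the NM libraries lay lower still, at 1.24, 1.15 and 2.31 FPKM. The fitted log2 difference was 1.57 with a standard error of 0.08 (edgeR, adjusted p = 0.000358). Glyma.08G141000.Wm82.a2.v1 was at 9.05, 8.19 and 9.88 FPKM in Ri, against 35.8, 32.55 and 39.64 in Ga-H and 42.03, 32.6 and 35.01 in Ga-L. The ranges of Ga-H and Ga-L overlapped, and NM was lower than all of them, at 1.53, 2.97 and 3.59 FPKM. The log2 difference of Ri from Ga was -2.03 with a standard error of 0.13 (edgeR, adjusted p = 0.000975), and Ga-H and Ga-L differed by -0.10 with a standard error of 0.13 (edgeR, adjusted p = 0.719).

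In the other 5 of these genes, too, Ri replicate 1 lay with the rest of its group. This held in all 86 called genes, where Ri and Ga libraries did not overlap, and is not particular to these. Glyma.03G253700.Wm82.a2.v1 had 17.44, 17.52 and 13.12 FPKM in Ri, against 4.89, 3.97 and 3.44 in Ga-H and 5.48, 5.59 and 3.86 in Ga-L, and it was nearly silent in NM, with a mean of 0.133. Glyma.12G129500.Wm82.a2.v1 had 9.99, 16.2 and 9.05 FPKM in Ri, against 1.66, 2.13 and 3.0 in Ga-H and 1.05, 1.39 and 1.57 in Ga-L. The NM mean of Glyma.12G129500.Wm82.a2.v1 was 0.71. Both higher genes were thus lower with either level of G. aggregatum than in Ri, and higher there than in NM. The log2 differences of Ri from Ga were 1.79 and 2.72 (edgeR, adjusted p = 0.00678 for each).

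Among the lower genes, Glyma.20G113000.Wm82.a2.v1 had 2.01, 1.39 and 1.85 FPKM in Ri, against 6.11, 7.08 and 5.35 in Ga-H and 7.72, 7.19 and 7.28 in Ga-L. Glyma.09G053700.Wm82.a2.v1 had 2.25, 1.55 and 3.56 FPKM in Ri, against 14.47, 15.49 and 12.39 in Ga-H and 15.89, 17.78 and 19.48 in Ga-L. Glyma.12G130200.Wm82.a2.v1 had 4.56, 4.77 and 3.71 FPKM in Ri, against 8.09, 10.32 and 9.15 in Ga-H and 14.7, 13.91 and 14.3 in Ga-L. In these 3 genes Ri lay clear of both Ga groups, with differences of -1.96, -2.71 and -1.43 on the log2 scale (edgeR, adjusted p = 0.00547, 0.00678 and 0.00678). NM averaged 0.407 FPKM in Glyma.20G113000.Wm82.a2.v1, 2.61 in Glyma.09G053700.Wm82.a2.v1 and 3.69 in Glyma.12G130200.Wm82.a2.v1, below every Ri library in the first and overlapping the Ri range in the other two.

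The Ga-H and Ga-L groups were not interchangeable in the 86 genes. In 58 of the 64 genes lower in Ri (90.6%), the mean log2 CPM stood in the order Ri, Ga-H, Ga-L from low to high, and in the other 6 Ga-L lay between Ri and Ga-H. Over all genes with a negative log2 fold change, 6499 (38.6%) had the first order and 4175 the second. Another 6114 had Ri between the Ga groups, a place that none of the 64 genes had. Their choice largely fixed this, so 38.6% is not a like base for 90.6%. The median distance of Ri was -1.15 on the log2 scale from Ga-H and -1.79 from Ga-L in these 64 genes. In the 22 genes higher in Ri it was 1.98 from Ga-H and 1.68 from Ga-L, and Ga-H lay below Ga-L in 13 and above it in 9. Ga-H itself differed from Ga-L in 5 of the 64 genes and 1 of the 22 (edgeR adjusted p under 0.05), against 0.293% of all genes tested. These distances share the Ri and Ga libraries with the comparison that chose the genes and are given as a description.

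The uncolonized libraries, which took no part in the choice, placed the 2 lists differently. For the 22 genes higher in Ri, NM was below both fungi in 17 and nearer to Ga than to Ri in 21, with a median distance of -2.86 log2 from Ri and -0.69 from Ga. For the 64 genes lower in Ri, NM was below both fungi in 36, between them in 17 and above both in 11, and it was nearer to Ri in 47. The median distance was -0.31 from Ri and -1.72 from Ga. Over all genes tested NM was nearer to Ga in 61.0% and below both fungi in 41.0%. In both lists the fungus with the lower level was mostly the one nearer to the uncolonized root, and many genes of either list were above NM with both fungi.

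The gene IDs number genes along the chromosomes. The 86 genes were spread over all 20 chromosomes, with 0 to 3 higher and 1 to 7 lower genes on each, and none lay on unplaced scaffolds. In 2 places the next tested gene in ID order had also fallen. Glyma.08G140900.Wm82.a2.v1, beside Glyma.08G141000.Wm82.a2.v1, was at 8.66, 5.86 and 7.05 FPKM in Ri, against 13.11, 14.35 and 14.47 in Ga-H and 17.5, 18.75 and 19.4 in Ga-L. The log2 difference was -1.19 with a standard error of 0.13 (edgeR, adjusted p = 0.0192), against -2.03 for its neighbour. In the other pair, Glyma.10G186400.Wm82.a2.v1 had 0.41, 0.23 and 0.38 FPKM in Ri, against 0.69, 0.69 and 1.07 in Ga-H and 1.93, 3.16 and 3.28 in Ga-L, next to the abundant Glyma.10G186500.Wm82.a2.v1. The log2 differences of this pair were -2.15 and -1.12, with standard errors of 0.34 and 0.16 (edgeR, adjusted p = 0.0466 and 0.0374). Of the pair, Glyma.10G186400.Wm82.a2.v1 passed the low-count filter only through the Ga libraries, where it is high. The strand handling of the counts is not given in the sources used here, so reads of overlapping neighbours cannot be told apart, and near-identical copies divide their reads. The call of Glyma.08G140900.Wm82.a2.v1 held only without Ri replicate 1, Ri replicate 2 or Ga-L replicate 1 (edgeR adjusted p up to 0.11), and those of both genes of the other pair only without Ri replicate 1 (up to 0.183 and 0.185). With Ga-H and Ga-L as 1 group the edgeR adjusted p was 0.0738 for Glyma.08G140900.Wm82.a2.v1, 0.284 for Glyma.10G186400.Wm82.a2.v1 and 0.0979 for Glyma.10G186500.Wm82.a2.v1. The call of Glyma.10G186400.Wm82.a2.v1 was also lost in all 3 limma settings (adjusted p from 0.0511 to 0.0614), and that of Glyma.10G186500.Wm82.a2.v1 in limma without a filter (adjusted p = 0.0778).

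Without Ri replicate 1 the same comparison called 4304 genes (11.8% of those tested). Leaving this library out was a choice made on the same expression values, so these calls are a description and no separate evidence of a difference. Of the 36369 genes then tested, 1996 were higher in Ri (5.49%) and 2308 lower (6.35%), by the same edgeR test and threshold, and 9744 (26.8%) had an unadjusted p under 0.05. All 86 genes of the 9-library comparison were among them with the same direction, which is 2.0% of the 4304. The 2 Ri and 6 Ga libraries did not overlap in FPKM in 1794 higher and 2044 lower genes, while over all genes tested such a separation with higher values in Ri was found in 14.8% and with lower values in 9.59%. Separation by chance is more frequent with 2 Ri libraries than with 3. The biological coefficient of variation was 18.2% without this library and 23.8% with it. Leaving out another library in its place gave 3 to 11 higher and 5 to 18 lower genes. Without Ri replicate 1, taking Ga-H and Ga-L as 1 group gave 635 higher and 531 lower genes, and leaving out Ri replicate 2 as well gave 513 and 482.

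**Figure D3:**
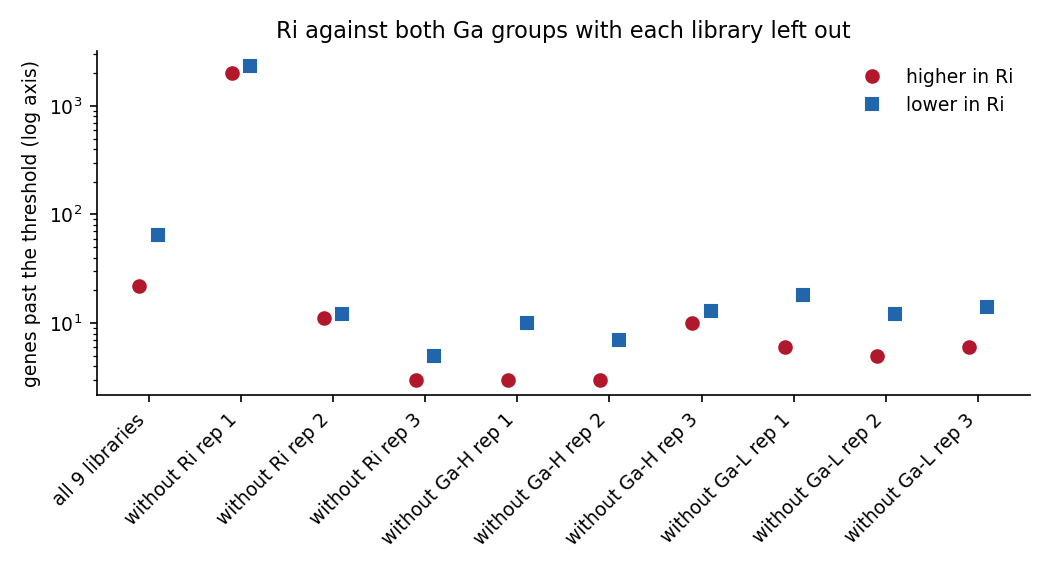
Number of genes past the threshold (log axis) that were higher (circles) or lower (squares) in Ri, with all 9 libraries and with each library left out. Leaving out Ri replicate 1 gives 1996 higher and 2308 lower genes, and every other omission gives fewer genes than the 22 and 64 of the full set.

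The longer lists were also made up of moderate changes. The median log2 fold change was 0.97 among the 1996 genes higher in Ri replicates 2 and 3, and -1.16 among the 2308 lower ones. A difference of 2-fold or more was reached by 963 higher genes (48.2%) and 1429 lower genes (61.9%), against 11.1% of all genes tested. The genes higher in Ri had a median of 14.1 FPKM in Ri and 7.14 in Ga, and the lower ones 5.3 in Ri and 11.6 in Ga. Calls were most frequent among abundant genes. Of the 898 genes with a mean of at least 100 FPKM, 6.79% were higher and 16.1% lower in Ri, and of the 3413 genes under 1 FPKM, 3.16% were higher and 2.93% lower. Abundant genes also have more counts and so a smaller counting error, whose part in these shares was not tested.

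**Figure D4:**
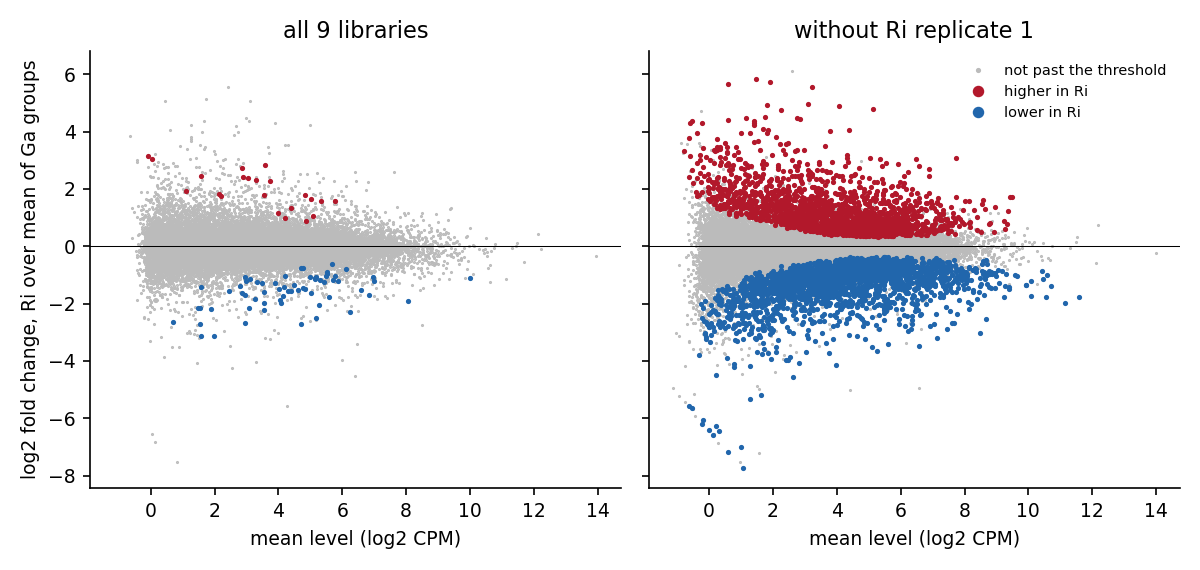
Log2 fold change of Ri over the mean of the Ga groups (vertical) against mean level in log2 CPM (horizontal) for each gene tested, with all 9 libraries (left) and without Ri replicate 1 (right). Genes past the threshold number 86 on the left and 4304 on the right, where they reach down to small fold changes at high levels.

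Ri replicate 1 was left out because it stood nearer to the Ga libraries than to the other Ri libraries. Its place in these 4304 genes therefore describes that distance gene by gene and is no test of them. Its position was expressed on a scale on which 0 is the Ga mean and 1 the mean of Ri replicates 2 and 3, in log2 CPM. Ri replicate 1 had a median position of -0.12 (quartiles -0.47 and 0.21) in the 1996 higher genes and 0.06 (quartiles -0.24 and 0.35) in the 2308 lower genes. It thus lay at the G. aggregatum level in the typical gene. It fell inside the range of the 6 Ga libraries in 63.8% of the 4304 genes, beyond that range on the Ri side in 16.4% and beyond it on the other side in 19.8%. It was on the Ri side of the midpoint in 593 genes (13.8%). By size of the difference between the other Ri libraries and Ga, this share lay between 12.2% (1 to 2 on the log2 scale, 1844 genes) and 18.1% (less than 0.5, 270 genes).

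**Figure D5:**
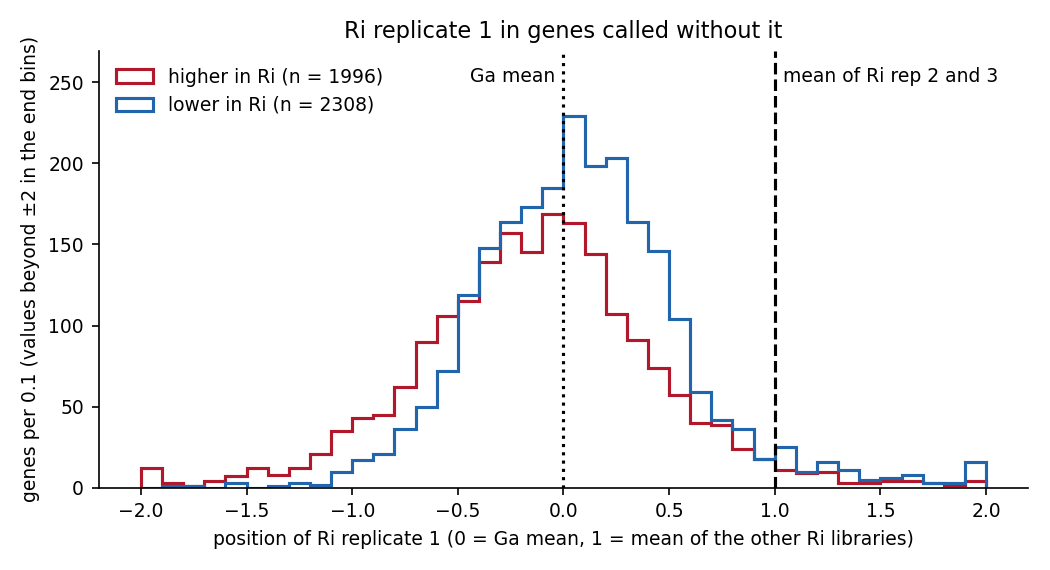
Position of Ri replicate 1 in the genes called without it, for the 1996 genes higher and the 2308 genes lower in Ri replicates 2 and 3 (number of genes per 0.1). The dotted line marks the mean of the Ga groups and the dashed line the mean of the other Ri libraries, and both distributions centre near the dotted line.

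The same reading for the other Ri libraries rests on few genes. In the 23 genes called without Ri replicate 2 (11 higher, 0.0302% of those tested, and 12 lower, 0.0329%), that library had a median position of 0.80, and it was on the Ri side of the midpoint in 16. In the 8 genes called without Ri replicate 3 (3 higher, 0.00825%, and 5 lower, 0.0137%), that library had a median position of 0.94 and was on the Ri side in all 8.

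By the rule for named genes, Glyma.09G185500.Wm82.a2.v1 and Glyma.14G032000.Wm82.a2.v1 had the largest rises without Ri replicate 1. Glyma.09G185500.Wm82.a2.v1 had 15.22 and 3.16 FPKM in Ri replicates 2 and 3 and no count in Ri replicate 1, against 0.8, 0.48 and 1.34 in Ga-H and 0, 0.07 and 0 in Ga-L. The log2 difference was 5.72 with a standard error of 0.70 without Ri replicate 1 (edgeR, adjusted p = 0.00196), and 5.14 with a standard error of 1.27 with it (edgeR, adjusted p = 0.132). It rested largely on Ri replicate 2, and with a further library left out the difference ran from 4.16, without that replicate, to 6.69. Glyma.14G032000.Wm82.a2.v1, a transcript of 153 bases, had 11.27 and 147.74 FPKM in Ri replicates 2 and 3 and 0.79 in Ri replicate 1, against 0, 7.84 and 6.39 in Ga-H and 0.81, 0 and 0 in Ga-L. One library, Ri replicate 3, carried most of its level. With all 9 libraries it was not tested, as too few libraries had enough counts for the low-count filter. That filter asks for as many libraries as the smallest group holds, a number that fell when Ri replicate 1 was left out. The gene then passed only through the libraries where it is high, so no test of it is given.

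The deepest falls by the same rule, among genes of at least 1 FPKM in Ga, were of genes with no count in Ri replicates 2 and 3, which entered the fit only through the Ga libraries. Glyma.10G192600.Wm82.a2.v1 had 20 counts (1.85 FPKM) in Ri replicate 1, against 2.45, 1.61 and 2.13 FPKM in Ga-H and 1.97, 1.15 and 0.9 in Ga-L. Against a floor of 3 counts per library, it was at least 6.11-fold lower in Ri replicates 2 and 3 than in Ga. Ri replicate 1 lay inside the Ga range. Glyma.13G204600.Wm82.a2.v1 had 4 counts (0.51 FPKM) in Ri replicate 1, against 0.53, 0.75 and 0.89 FPKM in Ga-H and 3.36, 6.14 and 7.65 in Ga-L. It was at least 8.48-fold lower in Ri replicates 2 and 3 than in Ga, at least 1.90-fold against Ga-H and at least 15.1-fold against Ga-L. The floor covers counting error only. Both genes could enter the fit only because they are high in Ga, so their calls are no support and their adjusted p is not given. The call of Glyma.13G204600.Wm82.a2.v1 was lost with Ga-H and Ga-L as 1 group (edgeR adjusted p = 0.124). In the fit with all 9 libraries neither gene passed (edgeR adjusted p = 0.562 and 0.108).

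Without Ri replicate 1 the uncolonized libraries stood nearer to Ga. For the 1996 genes higher in Ri, NM was below both fungi in 67.1%, and its median distance was -1.13 log2 from Ri and -0.18 from Ga. For the 2308 lower genes, NM was above both fungi in 51.9% and below both in 23.1%, with a median distance of 0.97 from Ri and 0.04 from Ga. NM was thus nearer to Ga in 93.4% of higher and 67.5% of lower genes, against 68.3% of all genes tested. For the lower genes this share was close to that of all genes.

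The prevailing order of the Ga groups was kept in the lower genes and turned in the higher ones. Of the higher genes, 27.2% had Ga-H below Ga-L, against 59.1% with all 9 libraries. Ga-H lay between Ri and Ga-L in 72.6% of the 1996 higher genes and in 76.6% of the 2308 lower ones. It did so in 7688 (42.4%) of all genes with a positive log2 fold change, with Ga-L between in 5856 and Ri in 4582. For a negative log2 fold change the numbers were 7154 (39.3%), 5516 and 5512. Ri lay between in only 4 genes of each called list, which their choice largely fixed, so these are not like bases. Ga-H differed from Ga-L in 293 higher genes (14.7%) and 715 lower genes (31.0%), against 6.45% of all genes tested in the same fit (edgeR adjusted p under 0.05). As above, these values share the Ga libraries with the comparison that chose the genes.

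Called genes stood next to genes called in the same direction in a larger share of cases than all genes were called. After a gene higher in Ri, the next tested gene in ID order was also higher in 193 of 1980 cases (9.75%) and lower in 99, where 5.49% of all genes were higher. After a gene lower in Ri, the next was lower in 290 of 2296 cases (12.6%) and higher in 83, where 6.35% of all genes were lower. No test was made of these shares, and the part of near-identical neighbouring copies in them was not tested. The longest runs held 4 genes in either direction, and 21 runs of higher and 43 of lower genes held 3 or more. By chromosome the higher genes made up 3.60% (chromosome 5) to 6.33% (chromosome 19) and the lower genes 5.25% (chromosome 5) to 7.56% (chromosome 11) of the genes tested.

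With all 9 libraries, no gene that was counted in every library of one fungus and in none of the other reached a level that could be tested. A count in every Ri library and none in the 6 Ga libraries was found for 19 genes, with a mean of at most 4.67 counts per Ri library. The reverse was found for 14 genes, with a mean of at most 9.17 counts per Ga library. Without Ri replicate 1, 66 genes had a count in both Ri libraries and none in Ga, and none of these was tested. A count in all 6 Ga libraries and none in Ri replicates 2 and 3 was found for 84 genes, of which 11 had enough counts in Ga to enter the fit. Their direction was fixed by this choice, so no count of calls is given.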

How the data were processed

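The comparison used 9 root RNA libraries, 3 from each colonized group. Per the file headers, each deposited table holds 1 library and lists a transcript length, an expected count and an FPKM value for every gene in it. A gene missing from a table was set to 0. Expected counts are estimates in which reads matching several genes are divided, so near-identical copies are uncertain. The FPKM values were scaled by the authors to length and library size. Bowtie2, HISAT and RSEM are named in the submitters' processing notes without versions or roles. Gene IDs carry the tag Wm82.a2.v1, and 0 of 49551 matched any of the 59048 rows of the RefSeq table (Glycine_max_v4.0). The planned gene lists could therefore not be formed, and none was tested.

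Expected counts were rounded to whole numbers. In R 4.3.3 with edgeR 4.0.16, low genes were removed with the default filter by group, libraries were scaled by TMM, and the robust quasi-likelihood test was fitted to the 9 libraries with 1 mean per group, 6 residual degrees of freedom and no replicate block. The same was done without Ri replicate 1, with 5. Standard errors come from each log2 difference and its F value. Positions and distances between groups used log2 CPM with TMM and a prior count of 2. Depth was alike in all libraries. Alternatives were other scalings, no filter, DESeq2 1.42.0, limma 3.58.1 on log2 of FPKM plus a pseudocount, NM libraries in the fit, Ga-H and Ga-L as 1 group, a replicate block, no robust option, and each library left out.

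Genes were named by a rule: past the threshold, at least 1 FPKM in the higher group, no overlap between Ri and Ga libraries, and the 2 largest log2 fold changes in each direction, in each of both fits. Neighbouring pairs and genes kept with every library left out were added after their values were seen. The comparison, its members and the planned lists were chosen with earlier results of these data known.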

Additional observations from a re-analysis of the deposited data

Results flagged for a closer look

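In the fit in which each gene was named, for 3 genes the distance of Ri from Ga-H differed from its distance from Ga-L, by the test of Ga-H against Ga-L in the same fit (edgeR's quasi-likelihood test, Benjamini-Hochberg adjustment over all genes). Glyma.05G193900.Wm82.a2.v1 averaged 0.36 ± 0.0529 FPKM at the high level of colonization, Ga-H, and 3.47 ± 0.995 at the low level, Ga-L (SD, n = 3 each). Ga-H minus Ga-L came to -3.35 on the log2 scale with a standard error of 0.34 (edgeR, adjusted p = 0.041). This gene passed the low-count filter only with the help of Ga-L, where it is high, so this p-value adds no separate support. Glyma.18G141900.Wm82.a2.v1 was higher in Ga-H than in Ga-L by 0.652 on the log2 scale, with a standard error of 0.10 (edgeR, adjusted p = 0.0488), with Ri above both. In the fit without Ri replicate 1, Glyma.13G204600.Wm82.a2.v1 averaged 0.723 ± 0.181 FPKM at the high level and 5.72 ± 2.18 at the low level (SD, n = 3 each), and the log2 difference was -3.03 with a standard error of 0.43 (edgeR, adjusted p = 0.0099). With all 9 libraries this difference did not pass (edgeR, adjusted p = 0.0696). Glyma.13G204600.Wm82.a2.v1 passed the low-count filter only through Ga-L, where it is high, so its p-values add no separate support. Without Ri replicate 1, Ga-H also differed from Ga-L in 3 further genes named from the 9 libraries, by -1.87 in Glyma.10G186400.Wm82.a2.v1, -0.72 in Glyma.12G130200.Wm82.a2.v1 and -0.49 in Glyma.08G140900.Wm82.a2.v1 on the log2 scale (edgeR, adjusted p = 0.014, 0.0198 and 0.0298).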

How the results depend on the processing

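In the 9-library comparison the 22 higher genes became 39 without the low-count filter, 34 with limma on log2(FPKM + 1) with or without its filter, 34 with the replicate number as a block, 92 with NM libraries in the fit, 478 with DESeq2 and 5 with Ga-H and Ga-L as 1 group. The 64 lower genes became 125 and 104 with limma at pseudocounts of 1 and 0.1, 175 with NM libraries in the fit, 767 with DESeq2 and 9 with Ga-H and Ga-L as 1 group. With each library left out, the higher genes ran from 3 to 1996 and the lower from 5 to 2308, the highest without Ri replicate 1. Of the 86 calls, 59 were kept with the block and 86 with DESeq2. With the block the edgeR adjusted p was 0.0534 for Glyma.13G362200.Wm82.a2.v1 and Glyma.10G009400.Wm82.a2.v1, 0.0666 for Glyma.14G053600.Wm82.a2.v1 and 0.0524 for Glyma.10G186400.Wm82.a2.v1, and the other named genes kept their calls. Same-numbered libraries deviated together only in part, with r from -0.04 to 0.23 over genes, against -0.25 to 0.17 for differently numbered ones. The labels do not say that numbers mark a pairing, and this was not tested.

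Without Ri replicate 1 the 1996 higher and 2308 lower genes became 635 and 531 with Ga-H and Ga-L as 1 group, and the lower genes 1514 with limma without its filter. With another library left out, the higher genes ran from 513 to 2038 and the lower from 482 to 2413. The lowest were without Ri replicate 2, which leaves 1 Ri library assumed to vary like the Ga groups, and without Ga-L replicate 2 there were 1316 and 1502. The block gave 1622 and 2180. Higher genes outnumbered lower ones with library totals alone (2477 against 1983), with limma on log2(FPKM + 1) with and without its filter (2005 against 1932, and 1727 against 1514), with Ga-H and Ga-L as 1 group and without Ri replicate 2. For the differences of named genes, the call was lost in 75 alternative values and held in 299, and the direction never changed. The difference in genes listed (46.5) ran from -74.5 to 283 with a library left out, and that in the share of the 100 most abundant genes (-1.05 points) from -1.49 to -0.493. The alternatives without Ri replicate 1 were chosen after seeing the data. The causes of these changes were not tested.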
